A study of Mus musculus with 2 samples.

Results

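Skeletal muscle regenerates ATP during contraction through creatine kinase, through glycogen breakdown and glycolysis, and through the purine nucleotide cycle, and it uses its own isoform of many of these enzymes. The genes described here were 10 enzymes of these routes. The muscle isoforms were Ckm, Ckmt2, Pgam2, Eno3, Pygm, Pfkm and Ampd1, and the isoforms of other or of most tissues were Ckb, Pgam1 and Eno1. They were chosen by name, and every probe set (the group of oligonucleotides that reads a transcript) assigned by the platform annotation to exactly 1 of them was taken. This gave 10 probe sets of 9 genes, among 34945 probe sets of 18193 genes, with Ckm read by 2 probe sets. No probe set was assigned to Eno1, and it was not analysed here.

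Palates of BALB/c mouse fetuses were sampled at E18.5 (day of embryonic development). One array held palate RNA from a fetus or fetuses labelled Myf5-/-:MyoD-/-, with null alleles of both genes on the BALB/c background, and the other held wild-type BALB/c palate RNA. Myf5 and MyoD (gene symbol Myod1) are the transcription factors that commit embryonic cells to skeletal muscle. The labels do not say how many fetuses made up a sample or which part of each gene was removed. With 1 array per genotype there was no replicate error and no test of the genotypes, so every value is a comparison of 2 arrays and has no p-value.

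The targeted genes were not lower by a margin that would mark the genotype. The brighter Myod1 probe set had a scaled signal of 1663 on the array labelled double null and 1938 on the wild-type array, a log2 ratio of -0.22. The dimmer one was faint on both arrays, with 305 on the array labelled double null and 282 on the wild-type array, the opposite direction. The Myf5 probe set had 531 on the array labelled double null and 517 on the wild-type array, under the level of 658 at which a gene counted as measured here. Whether these probes read the deleted stretches is unknown here, so the second genotype is called by its label throughout.

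Signals are linear MAS5 intensities scaled to make the arrays comparable, values under a floor of 287 were set to it, and ratios, on the log2 scale, are labelled double null over wild type. As a yardstick within these arrays, log2 ratios of different probe sets of one gene had a pooled SD of 0.51 (10190 probe sets of 4030 genes), which covers probe and transcript effects but not differences between animals. A signal depends on the probes as well as on the transcript, so levels are compared between arrays and never between genes. In whole tissue, fewer muscle cells and less RNA per muscle cell cannot be told apart.

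The muscle isoforms were lower on the array labelled double null, by 1.36-fold to 3.02-fold, while the brain-type creatine kinase and the non-muscle phosphoglycerate mutase had nearly equal signals on both arrays. All 7 muscle isoforms had a log2 ratio below 0, from -1.60 for Pgam2 to -0.44 for Pfkm. Of the 9 genes with a probe set 8 lay below 0, with a median of -0.71. Of the 8 that counted as measured 7 lay below 0, with a median of -0.74. Over all 11238 measured genes 43.7% lay below 0 and the median was 0.07. Of the 8 members that counted as measured, 2 (Pgam2 and Ckm) were at least 2-fold lower, against 4.22% of all measured genes, and 0 were at least 2-fold higher, against 3.51%.

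Creatine kinase moves phosphate between creatine phosphate and ADP. Ckm, the cytosolic muscle form that is bound in part to the sarcomere, had a signal of 4644 on the array labelled double null and 12145 on the wild-type array. It was 2.62-fold lower, and 1.82% of measured genes had a ratio as low or lower. Its dim second probe set read 183 on the array labelled double null, under the floor, and 314 in wild type. Both Ckm probe sets thus had the higher signal in wild type, but the second one barely cleared the floor there, and with the floor its log2 ratio was -0.13.

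Ckmt2, the sarcomeric mitochondrial creatine kinase, which forms creatine phosphate beside the respiratory chain, had 1183 on the array labelled double null and 1941 in wild type. Its log2 ratio of -0.71 (1.64-fold lower) was larger than the SD between probe sets of one gene but short of 2-fold. Ckb, the brain-type cytosolic form that is also made by many non-muscle cells, had 19265 on the array labelled double null and 19425 in wild type. Its log2 ratio of -0.01 lay far within that SD.

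**Figure D1:**
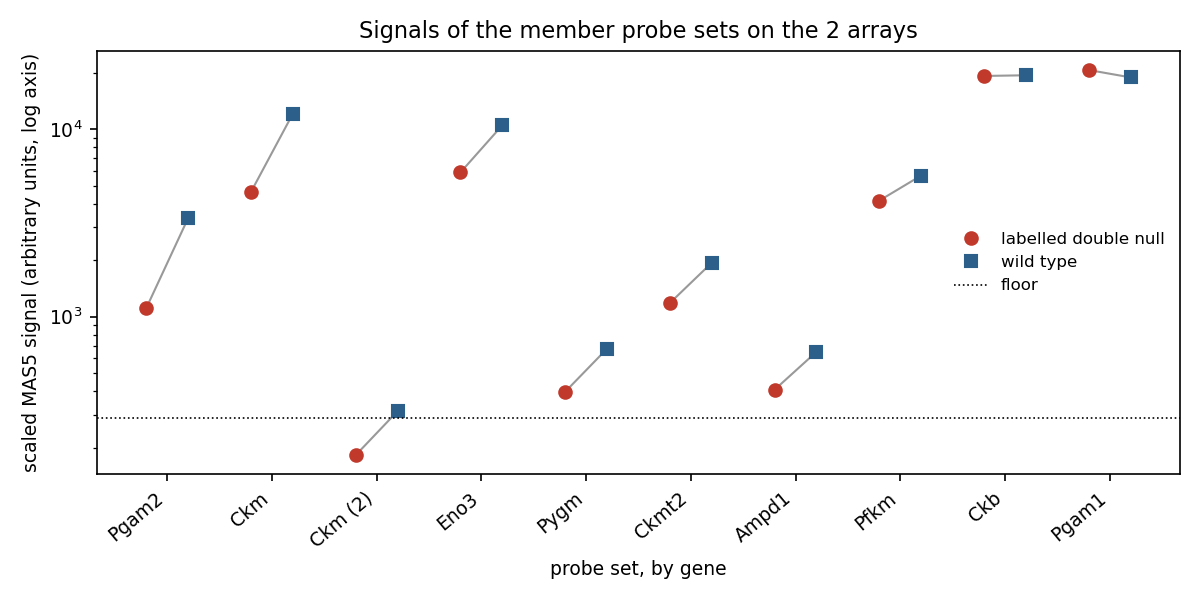
Scaled MAS5 signal (log axis) of each of the 10 member probe sets for the palate labelled double null (red circles) and the wild-type array (blue squares), 1 array each; the dotted line is the floor of 287, and heights are not comparable between probe sets. The muscle isoforms fall below their wild-type partners, from 4644 against 12145 for Ckm to 4164 against 5666 for Pfkm, whereas Ckb and Pgam1 are level.

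Phosphoglycerate mutase and enolase catalyse neighbouring late steps of glycolysis. Pgam2, the muscle mutase subunit, had 1114 on the array labelled double null and 3370 in wild type. At 3.02-fold lower it had the lowest ratio of the members, and 1.17% of measured genes were as low or lower. Pgam1, the subunit of most other tissues, had 20726 on the array labelled double null and 18927 in wild type, a log2 ratio of 0.13 that was -0.08 to -0.01 in 3 of the 14 alternative settings, all of them other scalings. Eno3, muscle enolase, had 5890 on the array labelled double null and 10517 in wild type, and was 1.79-fold lower (log2 ratio -0.84).

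Upstream in the pathway, Pygm, muscle glycogen phosphorylase, which releases glucose-phosphate from glycogen, had 398 on the array labelled double null and 675 in wild type (log2 ratio -0.76). Pfkm, the muscle subunit of phosphofructokinase, had 4164 on the array labelled double null and 5666 in wild type. Its log2 ratio of -0.44 was the smallest among the muscle isoforms and smaller than the SD between probe sets of one gene.

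Ampd1, muscle AMP deaminase, which feeds the purine nucleotide cycle, had 408 on the array labelled double null and 650 in wild type (log2 ratio -0.67). Pygm and Ampd1 were the dimmest genes of the set and lay on either side of the level of 658. Pygm passed it on the wild-type array alone, so a filter of this kind favours a lower ratio, and Ampd1 missed it on both. With the floor raised to the 60th percentile of signals the log2 ratio of Pygm was -0.04.

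**Figure D2:**
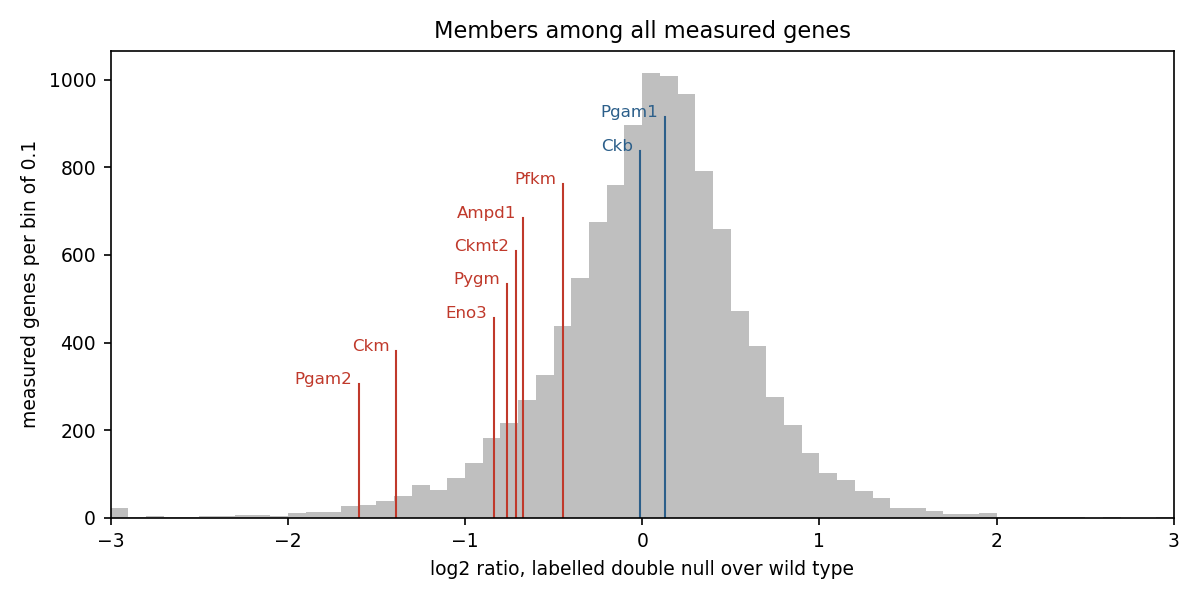
Number of measured genes (grey bars, 0.1 wide; the end bars hold genes beyond the axis) by log2 ratio, labelled double null over wild type, with the members marked at their ratios, muscle isoforms in red and other isoforms in blue (line heights carry no value; Ampd1 was under the measured level). Pgam2 and Ckm stand in the lower tail with 1.17% and 1.82% of genes at or below them, the other muscle isoforms lie between -0.84 and -0.44, and Ckb and Pgam1 lie near the peak.

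Isoforms of one enzyme were then set against each other on the same arrays. The difference between the log2 ratios of a muscle isoform and its relative is not altered by multiplying an array by a constant, although a floor can alter it. It shows unequal change and does not show which of the pair changed. It was available for 6 of the 7 planned pairs, the exception being Eno3 with Eno1, and was below 0 in all 6. For Pgam2 minus Pgam1 it was -1.73, or 3.31-fold. For Ckm minus Ckb it was -1.38, or 2.59-fold, and -0.12 with the dim Ckm probe set. The spread of probe sets gives an SD of 0.73 for a difference between a pair of genes. The Pgam2 difference exceeded it with the 1 probe set of each gene used here, and the Ckm difference exceeded it with the brighter Ckm probe set alone.

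For Pygm, Ampd1 and Ckmt2 the comparison with 0.73 depended on the setting or probe set. Pygm minus Pygb, the brain-type phosphorylase, was -1.0, and -0.28 with the floor at the 60th percentile. Ampd1 minus Ampd2 was -0.91, and -0.70 with the other Ampd2 probe set. Ckmt2 minus Ckmt1, the mitochondrial creatine kinase of non-muscle tissues, was -0.73, and -1.24 with the second, dim Ckmt1 probe set. Over the settings it ranged from -0.73 to -0.64. Pfkm minus Pfkl, the liver-type subunit, was -0.44, and from -0.44 to -0.22 over the 3 Pfkl probe sets, smaller than 0.73 in each. In each of the 6 enzyme families, enolase without Eno1, the lowest log2 ratio belonged to a muscle isoform.

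The remaining relatives, which took no part in those pairs, lay above 0 by the probe sets that represent them. Eno2, neuronal enolase, had 5387 on the array labelled double null and 2384 in wild type (2.26-fold higher, and 1.96-fold with the median signal of the reference genes equalised). Pygl, liver phosphorylase, had a log2 ratio of 0.68, Pfkp, the platelet-type phosphofructokinase subunit, 0.67, and Ampd3, the erythrocyte-type deaminase, 0.85. Ampd3 had 1064 on the array labelled double null and 589 in wild type. It thus counted as measured through the array labelled double null alone, which favours a higher ratio. Bpgm, which belongs to the mutase family and makes the 2,3-bisphosphoglycerate of red cells, had 0.32, with 0.39 and, in a probe set under the measured level, -0.48 in its others.

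**Figure D3:**
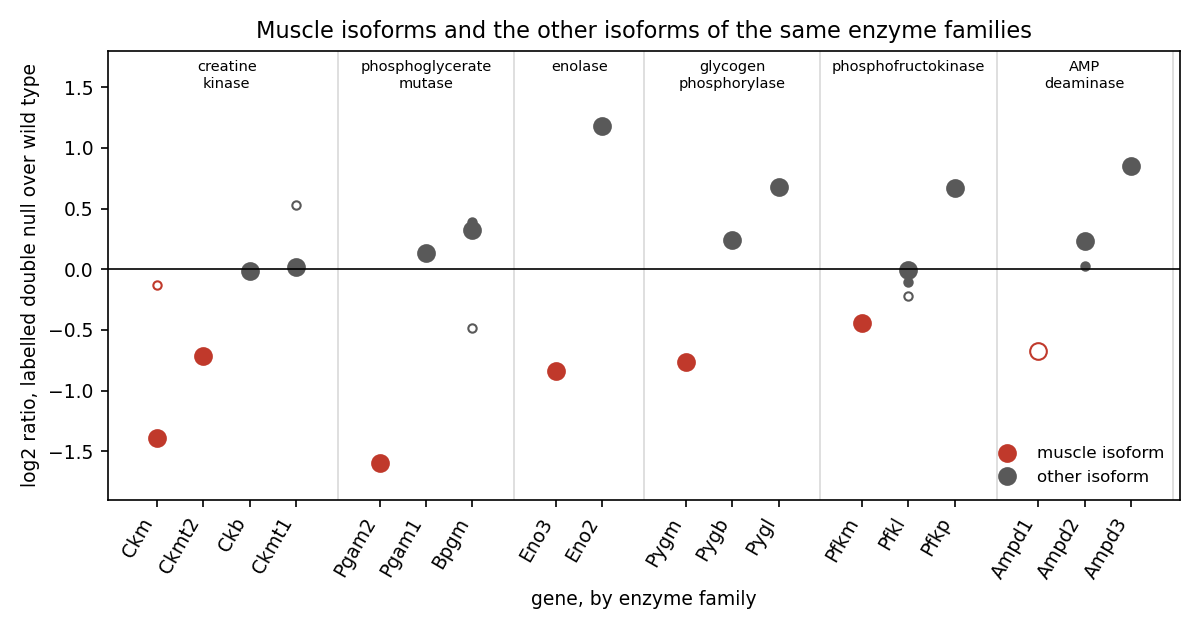
Log2 ratio, labelled double null over wild type, of every probe set above the floor on an array, for the isoforms of 6 enzyme families (muscle isoforms red, others grey; large symbols represent the gene, small ones are further probe sets, open symbols were under the measured level). The lowest large symbol of each family is a muscle isoform, with -1.39 for Ckm and -1.60 for Pgam2, and the large symbols of the other isoforms lie from -0.01 (Ckb) to 1.18 (Eno2), with small ones down to -0.48 (Bpgm).

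Because Myf5 and MyoD bind the E-box, CANNTG, the RefSeq promoters (GRCm38.p6) of the members were examined for it. Sequences are shown for the 2 members at least 2-fold lower and for their relatives with level signals, as the 250 bases before the start of transcription, 5′ to 3′ on the strand of the gene, with each E-box in capitals.
Pgam2 (chr11:5803797-5804046, minus strand): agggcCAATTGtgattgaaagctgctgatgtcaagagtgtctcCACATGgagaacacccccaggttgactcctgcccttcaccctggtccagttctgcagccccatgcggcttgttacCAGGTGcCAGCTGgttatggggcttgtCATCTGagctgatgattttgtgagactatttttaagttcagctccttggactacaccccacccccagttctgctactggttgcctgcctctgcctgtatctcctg
Ckm (chr7:19410844-19411093, plus strand): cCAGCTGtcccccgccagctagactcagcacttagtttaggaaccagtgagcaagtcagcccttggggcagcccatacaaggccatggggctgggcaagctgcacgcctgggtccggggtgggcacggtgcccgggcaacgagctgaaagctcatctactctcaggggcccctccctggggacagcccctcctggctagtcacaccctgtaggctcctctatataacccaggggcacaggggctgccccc
Pgam1 (chr19:41911621-41911870, plus strand): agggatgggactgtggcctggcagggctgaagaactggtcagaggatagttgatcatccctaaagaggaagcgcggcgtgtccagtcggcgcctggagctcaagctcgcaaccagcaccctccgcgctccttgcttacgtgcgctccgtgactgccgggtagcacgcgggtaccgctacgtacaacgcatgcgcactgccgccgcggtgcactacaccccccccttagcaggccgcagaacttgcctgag
Ckb (chr12:111672339-111672588, minus strand): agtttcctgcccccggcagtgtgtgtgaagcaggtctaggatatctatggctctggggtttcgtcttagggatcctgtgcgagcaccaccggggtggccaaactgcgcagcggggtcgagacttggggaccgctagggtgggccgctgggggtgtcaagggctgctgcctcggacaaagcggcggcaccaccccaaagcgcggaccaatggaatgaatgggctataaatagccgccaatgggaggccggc
The Pgam2 promoter held 5 E-boxes, of which CAGGTG and CAGCTG stand 132 and 125 bases before the start. The Ckm promoter held 1, CAGCTG, at the far end of the window, and the Pgam1 and Ckb promoters held none.

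Promoters of 9 of the 10 members were matched by symbol, with 14 listed starts, and Ampd1 was not among them. An E-box lay in at least 1 window of all 6 muscle isoforms matched (8 of 9 windows) and in 1 of 3 other isoforms (1 of 5 windows), that one being Eno1. It is a short motif, present in 66.2% of the 32851 promoter windows of this length. The form CAGCTG, read the same on both strands, lay in the windows of 4 muscle isoforms (Ckm, Ckmt2, Pgam2 and Pygm) and of none of the others, against 13% of all windows. CACCTG on either strand, also an E-box, lay in those of 3 muscle isoforms and of none of the others, against 17.2%. A match to the MEF2 motif was found for Pgam2 and for Ckb (1.69% of windows), and none of the members held a CArG box (1.47%). GGGCGG lay in windows of Ckmt2 and Eno1 (32.7%). GCGTG lay in windows of 4 of 6 muscle and 2 of 3 other isoforms (28.2%), and ACGTG, which can share bases with an E-box, in 2 of 6 and 1 of 3 (16.6%), both counted on either strand. The percentages are shares of single windows, whereas Pfkm and Eno1 had several windows each. Counted by window, the muscle isoforms held CAGCTG in 4 of 9, CACCTG in 4 of 9, GCGTG in 5 of 9 and ACGTG in 3 of 9. By the same count the other isoforms held GCGTG in 4 of 5 and ACGTG in 1 of 5. These matches describe the letters of the windows only.

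Most other genes of the same routes had ratios near or above 0. Of 63 further enzymes and transporters of creatine and adenylate, glycolysis, glycogen and the purine nucleotide cycle, 46 were measured, 30 above 0 and 16 below. By the probe sets that represent them, none was at least 2-fold lower, against 4.22% of all measured genes. At least 2-fold higher were 3, against 3.51%. Their median log2 ratio was 0.12, beside 0.07 for all measured genes. The sign of such small medians follows the scaling: with the median signal of 13 reference genes equalised, that of all measured genes was -0.15, and those of the lists described next were -0.13 for creatine and adenylate, -0.02 for glycolysis, -0.21 for glycogen and -0.05 for purines.

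Among genes of creatine supply and adenylate kinases, 7 of 10 were measured, with a median of 0.08 and 5 above 0. The largest differences were -0.45 for Ak3, a mitochondrial adenylate kinase, 0.25 for Ak4, another mitochondrial form, and 0.14 for Gamt, the last enzyme of creatine synthesis. A second measured probe set had the opposite sign for Ak3 (0.50) and for Ak4 (-0.33). For the creatine transporter Slc6a8, with 0.08, a second measured probe set had -1.0, just past 2-fold lower. In glycolysis 17 of 23 genes were measured, with a median of 0.24, 12 above 0 and 2 at least 2-fold higher. Hk3, a hexokinase of leukocytes, had 736 on the array labelled double null and 188 in wild type, under the floor, and was at least 2.57-fold higher. It counted as measured through the array labelled double null alone. With the floor at the 60th percentile it was at least 1.12-fold higher, and with the filter at the 75th percentile it was not measured. The other gene past 2-fold was Eno2, and Pfkp came next, so 1 gene was past 2-fold in each of those settings and under the scaling that took Eno2 below 2-fold.

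Of the glycogen genes 14 of 20 were measured, with a median of 0.00 and 7 on each side of 0. After Pygl, the largest differences were -0.59 for Phka1, the muscle alpha subunit of phosphorylase kinase, and -0.58 for Phkg2, a catalytic subunit of the same kinase. A second measured Phka1 probe set gave 0.34, so the direction of Phka1 depends on the probe set. Phkg2 counted as measured through the wild-type array alone. In the purine list 8 of 10 genes were measured, with a median of 0.16 and 6 above 0. Adssl1, the muscle adenylosuccinate synthase that acts after AMP deaminase in the cycle, had 1120 on the array labelled double null and 215 in wild type, under the floor. It was at least 3.91-fold higher by its only probe set, the opposite direction to Ampd1, and counted as measured through the array labelled double null alone. With the floor at the 60th percentile it was at least 1.70-fold higher and with the filter at the 75th percentile it was not measured, so none of the purine genes was past 2-fold there. Ampd3, which also counted as measured through the array labelled double null alone, followed. Impdh1, an enzyme of guanine nucleotide synthesis, had -0.43.

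Markers of several cell types differed between the arrays alongside the enzymes. Of 27 genes of the skeletal muscle fibre 23 were measured, all 23 below 0, with a median of -0.93. Among them 9 were at least 2-fold lower, against 4.22% of all measured genes. The summed signal of the 23 was 144836 on the array labelled double null and 262976 in wild type. Des, 1 of those 9, and Actn3 counted as measured through the wild-type array alone, which favours a lower ratio. Among the fibre genes not measured, Myh2 had -0.49, and Myh4, Mybpc2 and Cacna1s were under the floor on both arrays. The muscle isoforms of the enzymes that were measured summed to 17392 on the array labelled double null and 34316 in wild type. Mice without both Myf5 and MyoD have been reported to lack skeletal muscle at birth. Whether that holds for the alleles used here is unknown. On the array given that label fibre markers were still bright, with the summed signal of 144836 given above. The direction of every ratio here rests on the labels, which these data do not settle. Heart also makes Ckm and Ckmt2. Of 10 cardiac genes 3 were measured, all below 0 with a median of -0.50, namely Tnnt2 (-1.03), Myl4 (-0.50) and Actc1 (-0.46), which fetal skeletal muscle makes too. None of the other cardiac genes was measured, and Myh6, Myl7, Nppa and Nppb were under the floor on both arrays. Pln had 468 on the array labelled double null and 180 in wild type, under the floor. Nkx2-5 had 438 on the array labelled double null and 386 in wild type. Tnni3 had 140 on the array labelled double null, under the floor, and 395 in wild type.

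Neuronal markers went the other way. All 16 were measured and above 0 by the probe sets that represent them, with a median of 0.85. Among them 6 were at least 2-fold higher, against 3.51% of all measured genes. A second measured probe set lay below 0 for Prph (-0.99) and Elavl3 (-0.15). Further measured probe sets of Nefl, Snap25, Stmn2, Stmn3, Elavl4 and Ina lay above 0. The summed signal of the 16 was 196824 on the array labelled double null and 94575 in wild type. Of 9 glial genes 6 were measured, with 5 above 0 and a median of 0.68, and Sox10 had -0.47. Mbp, counted above 0, had 0.51 by its brightest probe set and from -0.74 to 0.42 by its other measured ones. Gfap, which was not measured, had -0.78, with the array labelled double null under the floor. Of 10 oral epithelium genes 9 were measured, with 8 below 0 and a median of -0.96. Smooth muscle (5 of 8 measured) had 4 below 0 and a median of -0.58. The exception was Mylk, with 1.34, and -0.88 by a second measured probe set. Actg2, among those below 0, counted as measured through the wild-type array alone, which favours a lower ratio. Of the smooth muscle genes not measured, Myh11 had 0.76, with wild type under the floor, and Cnn1 had 0.47. Smtn, also not measured, had -0.21, with the array labelled double null under the floor. Erythroid genes (2 of 9 measured) had a median of -0.34. One of them, Slc4a1, had -0.46, and 0.52 by a second measured probe set. The part of these cell types in the signals of Eno2, Ckb, Pgam1 and the muscle isoforms was not tested.

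Across the settings tried, every muscle isoform had a log2 ratio below 0 wherever it was measured. Pgam2 and Ckm were at least 2-fold lower in all 14 alternatives that kept the fold rule. Their log2 ratios ranged from -1.80 to -1.51 for Pgam2 and from -1.59 to -1.37 for Ckm. Only the other scalings and the offset changed these ratios, since the floor, filter and probe set alternatives left both as reported. Eno3 ranged from -1.04 to -0.83 and passed 2-fold under 1 scaling. Ckb ranged from -0.22 to -0.01.

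**Figure D4:**
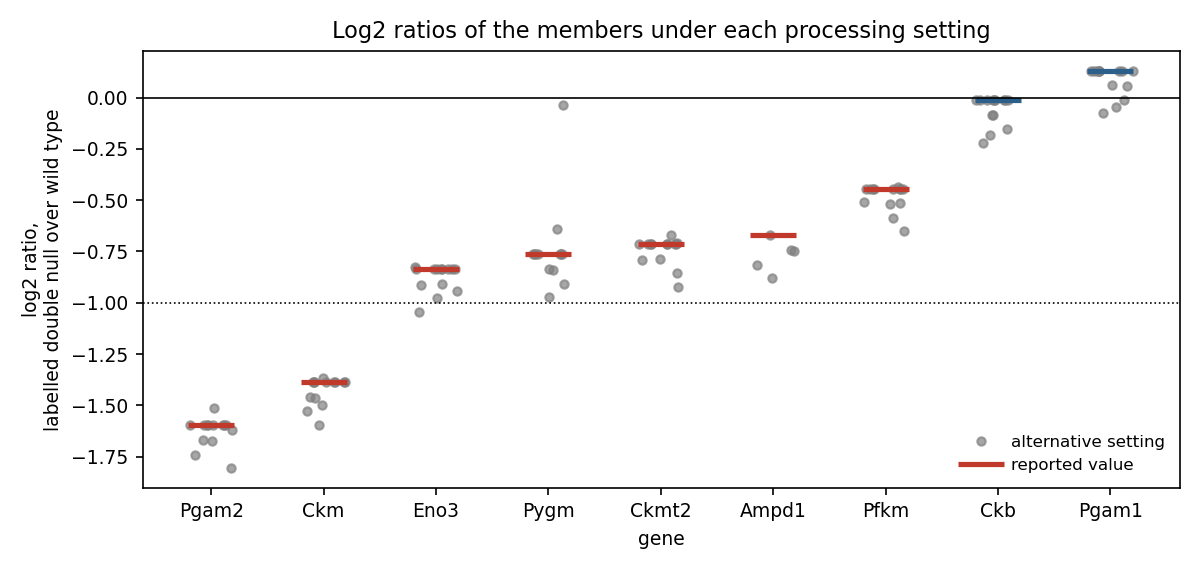
Log2 ratio, labelled double null over wild type, of each member as reported (bars; red muscle isoforms, blue other isoforms) and under each alternative of scaling, floor, probe set choice or filter (grey points, spread sideways for view; the dotted line is 2-fold lower). Pgam2 stays between -1.80 and -1.51 and Ckm between -1.59 and -1.37, Pygm reaches -0.04 with the highest floor, and Pgam1 crosses 0.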

How the data were processed

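Total RNA (6 µg per sample) was labelled as biotinylated cRNA and hybridised to Affymetrix arrays, per the labels' protocols. The authors deposited a linear signal intensity for each probe set and array, made with MAS5 (version not given in the sources used here) according to the submitters' processing notes. The mean after trimming 2% at each end was 1500.01 on both arrays. The depth of an array is not a count, and the number of arrays, 1 per genotype, limits the precision.

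The 64 control probe sets were left out. Arrays were scaled to equal medians over the probe sets in the upper 50% of both (factors 1.03 for the array labelled double null and 0.974 for wild type). Signals were raised to a floor at the 40th percentile (287) before log2. The probe set with the greatest mean log2 signal stood for its gene, which was called measured if either array was at the 60th percentile (658) or more. The platform annotation gave 1 gene for 34945 probe sets, several for 932 and none for 9160. Genes named by rule were the members, the targeted genes, the isoform pairs and families, and for each related list every measured gene past 2-fold and the 3 largest absolute ratios; other enzymes and the cardiac genes were named after their values were seen. Whether probes of one isoform also bind a relative was not examined. The members, lists and settings were chosen with earlier results of these data known. Promoters were those of RefSeq. The steps were tested on simulated data. Python 3.11.15, numpy 2.4.6, pandas 2.3.3 and matplotlib 3.10.9 were used.

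Alternatives covered the scaling, the floor, an added offset, the choice of probe set, the filter and the fold.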

Additional observations from a re-analysis of the deposited data

How the results depend on the processing

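The median of the members and the isoform differences kept their direction under every alternative that gave a value. Of these and the counts past 2-fold, 3 values moved beyond the limits set (1.5 times for a count, the SD of 0.51 for a log2 value). The count of members at least 2-fold lower was 2 of 8, against 4.22% of all measured genes. It was 5 at a threshold of 1.5-fold and 1 at 3-fold, by construction. The share of all measured genes was taken at 2-fold alone, so the counts at 1.5-fold and 3-fold have no share to be set against. With the floor at the 60th percentile, Pygm minus Pygb was -0.28, since that floor (658 as scaled) lies above one Pygm signal and close to the other. Equalising the median signal of 13 reference genes moved the median log2 ratio of all measured genes to -0.15 from 0.07, with 830 genes at least 2-fold lower and 187 higher, against 474 and 394 as reported. Setting the median ratio of those genes to 0 gave a median of -0.08, with 689 lower and 239 higher, and the deposited scaling gave 573 and 308. A floor at the 60th percentile gave 264 and 257. Those scalings lowered the members by the same amounts and left the isoform differences nearly as they were. The fibre markers at least 2-fold lower numbered 14 of 23 after equalising that median signal, against 9 as reported, and Hk3 and Adssl1 rest on wild-type signals under the floor. No paired analysis was possible because each genotype has 1 array.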

Other observations

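Other enzymes that muscle is known to use were picked after their values were seen. By the probe sets that represent them, their log2 ratios ran from -0.59 (Phka1) to 0.29 (Aldoa), and Aldoa alone lay above 0. Pkm, the pyruvate kinase of muscle and of many other tissues, had a signal of 14657 on the array labelled double null and 20790 in wild type, a log2 ratio of -0.50, and Phka1 had -0.59 by its brightest probe set. Ak1, the main adenylate kinase of muscle, had a signal of 2811 on the array labelled double null and 2833 in wild type. Gys1, the glycogen synthase of muscle and of many other tissues, had 1847 on the array labelled double null and 1861 in wild type. Hk2, the insulin-regulated hexokinase of muscle and fat, had a log2 ratio of -0.12. Aldoa, the aldolase of muscle and of many other cells, had ratios from -0.18 to 0.29 over its 5 probe sets, 4 of them above 0. Ak1, Gys1, Hk2, Aldoa and Pkm are also active outside muscle.

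Probe sets of one gene disagreed for the creatine transporter Slc6a8. Its brighter probe set had 6520 on the array labelled double null and 6162 in wild type. The dimmer one had 737 on the array labelled double null and 1476 in wild type, a log2 ratio of -1.0, just past 2-fold lower.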
